A study of Mus musculus with 9 samples.

Results

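The genes described here are 10 genes of the immature neuron and of axon growth: Sox4, Sox11, Sox12, Dcx, Igfbpl1, Dpysl3, Tubb2b, Tubb3, Stmn2 and Gap43. They were chosen by symbol, and all 10 were found among the 32661 entries of the count table that are neither spike-ins nor mitochondrial genes. Their counts were read in single ventral midbrain cells at E16 and at P0, the day of birth, and the question was how the genes differed between these stages in each sort. The mice carried VGAT-Cre, Ai14 and Pitx3-GFP. VGAT-Cre turns on the red protein tdTomato (Ai14) in cells that have expressed Slc32a1, the vesicular GABA transporter, and Pitx3-GFP marks mostly cells of the dopamine system. Cells sorted for tdTomato alone are called VGAT here (4 plates at E16 and 3 at P0), and cells sorted for tdTomato together with GFP are called VGAT+Pitx3 (1 plate per stage). All groups share these 3 alleles, none was treated, and brains from several litters were used at each stage. How the brains were split over the plates is not given in the sources used here.

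SoxC proteins, the family of Sox4, Sox11 and Sox12, are transcription factors that newborn neurons switch on as they leave the cell cycle, and they activate neuronal genes such as Tubb3 and Dcx. Doublecortin, tubulins, the CRMP proteins and stathmins build and remodel the microtubules of migrating cells and growing axons, while Gap43 acts at the membrane of the growth cone. Neurons generally lower this programme as they form synapses, some genes early and others late.

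Of 3455 wells, 2035 passed the limits of at least 2000 genes, at most 50000 counts and under 15% mitochondrial counts, 1026 of them VGAT cells at E16, 434 VGAT cells at P0 and 575 VGAT+Pitx3 cells. The plates held 44 to 305 such cells and 1435919 to 5408710 counts, and the median cell had 7587 to 34751 counts. The plate names in the count table carry 2 labels each. The first, used here, matches the sample titles, but on VGAT E16 replicates 3 and 4 and VGAT P0 replicates 1 and 3 the second label gives the other stage. The second label also ends in s with a number or in d, which the sources used here do not explain; d stands on VGAT E16 replicate 4 and VGAT P0 replicate 3, and s with the number 3 on both VGAT+Pitx3 plates. The defining markers fitted the sort of the first label: dopamine neuron markers (Pitx3, Th, Slc6a3, Slc18a2 and Ddc) summed to 2484 and 1890 CPM (counts per 1000000) on the VGAT+Pitx3 plates and to 20.1 to 52.9 CPM on the VGAT plates. GABA neuron markers (Slc32a1, Gad1 and Gad2) summed to 1732 to 2035 CPM on VGAT E16 plates and 1500 to 2043 CPM on VGAT P0 plates, and no marker of either list was at 0 in any group. Which label holds the true stage was not tested. Stage differences of summed total and intronic counts in VGAT cells were therefore also fitted with the second label. They were also fitted on the 3 plates whose labels give one stage (VGAT E16 replicates 1 and 2 against VGAT P0 replicate 2). With 1 plate at P0 that fit has no spread at P0, so only its differences are given. VGAT P0 replicate 2 also had the lowest median count per cell (7587) and the highest glial markers of the VGAT plates, given below. All other results that use stage rest on the first label only.

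Levels below are CPM of the summed cells of a plate, scaled by TMM over the 9 plates, and a lower level can come from fewer cells with a gene or from less RNA per cell, which such sums cannot tell apart. Differences are log2 fold changes of P0 over E16 from edgeR's quasi-likelihood test, with p-values adjusted by Benjamini and Hochberg over all genes tested. Nothing in the labels ties plates to separate animals, so p-values measure the spread between plates, which may be technical.

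In VGAT cells Sox11, Sox4 and Dcx were lower at P0, Sox11 by 2.27-fold, Dcx by 1.43-fold and Sox4 by 1.38-fold, and these were the members past the threshold of 0.05. The other 7 did not pass it, and none was called higher. Over all 13639 genes tested, 624 (4.58%) were called, 237 (1.74%) lower and 387 (2.84%) higher at P0. The median difference of the 10 members was -0.08, against 0.02 over all genes.

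Sox11, one of the strongest activators of the SoxC family, fell most in the main fit, with the sparse Igfbpl1 close to it (-1.09 ± 0.40 SE). It was at 1364, 1121, 1763 and 1651 CPM on the 4 VGAT E16 plates and at 685, 550.3 and 635 CPM on the 3 VGAT P0 plates. Every P0 plate lay below every E16 plate, and the mean went from 1475 ± 289.7 CPM (SD, n = 4 plates) to 623 ± 67.9 CPM (SD, n = 3 plates). The difference was -1.19 ± 0.16 (SE, adjusted p = 0.0063, edgeR). It passed the threshold in all 17 alternatives listed for it, leaving out any 1 plate included, with an adjusted p of at most 0.0383. In 1 of the 17, cells of 6000 to 15000 counts, VGAT P0 replicate 1 is a single cell (difference -1.65, adjusted p = 0.0338). With stage taken from the second label the difference was 0.47 (adjusted p = 0.887). On the 3 plates whose labels give one stage, with 1 plate at P0, it was -1.09. The highest levels were on VGAT E16 replicates 3 and 4, whose second label reads P0.

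Sox4, which acts on many of the same targets as Sox11, was at 795, 703, 832 and 765 CPM on the VGAT E16 plates and at 543, 489 and 585 CPM on the VGAT P0 plates. The stages did not overlap, with means of 774 ± 54.7 and 539 ± 48.2 CPM. The difference was -0.46 ± 0.11 (SE, adjusted p = 0.0397, edgeR), and it passed in 6 of 17 alternatives. Leaving out any plate but VGAT E16 replicate 2 ended the call (adjusted p of 0.0556 to 0.122), as did the second label (0.09, adjusted p = 0.972). On the 3 plates of one stage label the difference was -0.53.

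Sox12, usually the weakest activator of the family, was at 75.8, 70.3, 69.6 and 69.7 CPM at E16 and at 51.7, 89.5 and 66.4 CPM at P0. The stages overlapped, and the P0 plates spread more widely (SD 19.0 CPM) than the E16 plates (SD 3.01 CPM). The difference was 0.02 (95% interval -0.29 to 0.34, adjusted p = 0.949), and its sign turned without the filter on low counts, on spliced counts, without VGAT P0 replicate 2 and with the replicate block.

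**Figure D1:**
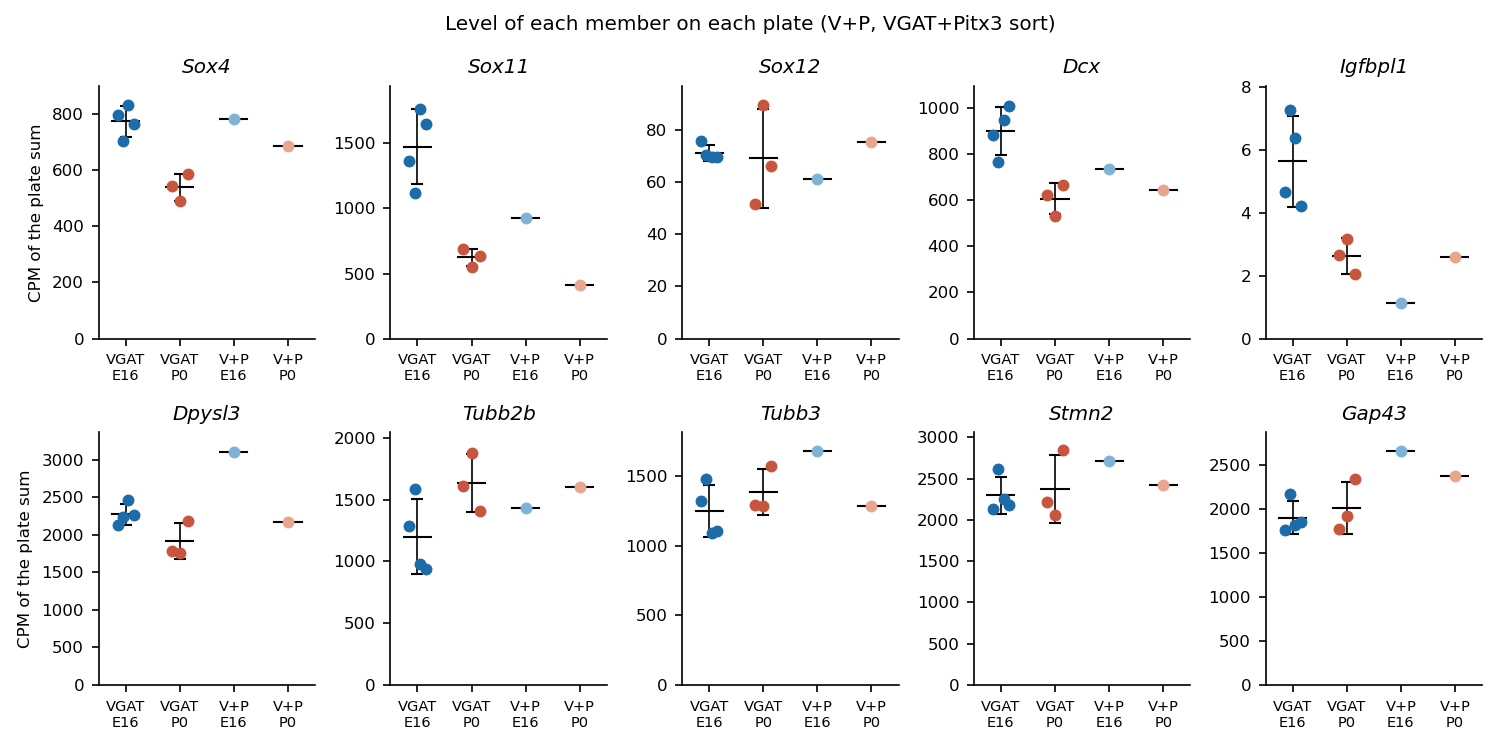
Level of each of the 10 genes in CPM (vertical axis, from 0, own scale per gene) on each plate, grouped as VGAT E16, VGAT P0, VGAT+Pitx3 (V+P) E16 and V+P P0; points are plates, horizontal lines are means and error bars are SD (none where a group has 1 plate). The VGAT P0 points of Sox4, Sox11, Dcx and Igfbpl1 lie below all VGAT E16 points, and those of the other 6 genes overlap them.

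Sox4 and Sox11 each have 1 exon on the minus strand in GENCODE M21 (GRCm38), Sox4 at chr13:28948919-28953713 and Sox11 at chr12:27334264-27342574. A long non-coding RNA gene on the other strand, Gm26735, overlaps Sox4 and held 1641 counts beside 23802 of Sox4 over the 9 plates; whether the counting used strand is not given in the sources used here. Sox12 (chr2:152393611-152398063, minus strand) has transcripts of 1 and 2 exons. The sequences upstream of these 3 relatives are shown because the genes are of 1 family and were called (Sox4 and Sox11) or not called (Sox12) between stages; whether their differences are unequal was not tested. They are the bases 250 to 21 before the RefSeq start of each gene on GRCm38.p6 (positions 28953699, 27342718 and 152398046), and distances are counted from these starts. Against GENCODE the RefSeq start lies 144 bases further upstream for Sox11 and 14 and 17 bases inside the gene for Sox4 and Sox12. The sequences are read 5′ to 3′ on the strand of the gene, at chr13:28953720-28953949, chr12:27342739-27342968 and chr2:152398067-152398296, all minus strand. Capitals mark CCAAT boxes and GC boxes. A CCAAT box was searched as the letters CCAAT on both strands. A GC box was searched as the letters GGGCGG on both strands.

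Sox4: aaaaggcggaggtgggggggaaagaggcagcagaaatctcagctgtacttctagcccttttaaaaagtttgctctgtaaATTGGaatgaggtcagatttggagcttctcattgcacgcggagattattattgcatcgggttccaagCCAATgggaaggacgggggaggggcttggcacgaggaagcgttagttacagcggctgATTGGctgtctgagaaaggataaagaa

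Sox11: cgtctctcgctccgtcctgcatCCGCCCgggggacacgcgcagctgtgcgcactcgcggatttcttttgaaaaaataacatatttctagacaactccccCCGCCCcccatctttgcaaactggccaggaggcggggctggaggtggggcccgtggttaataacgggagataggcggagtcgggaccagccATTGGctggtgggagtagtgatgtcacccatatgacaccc

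Sox12: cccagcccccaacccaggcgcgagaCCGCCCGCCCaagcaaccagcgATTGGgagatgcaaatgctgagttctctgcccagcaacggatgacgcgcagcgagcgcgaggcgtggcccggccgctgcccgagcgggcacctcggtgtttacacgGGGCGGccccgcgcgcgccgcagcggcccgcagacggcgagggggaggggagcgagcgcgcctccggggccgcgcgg

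The Sox4 window held 3 CCAAT matches, at 171, 104 and 47 bases before the start, and no GC box. The Sox11 window held 1 CCAAT match at 60 bases and 2 GC boxes at 228 and 151 bases, and that of Sox12 1 CCAAT match at 203 bases and 3 GC boxes at 225, 221 and 97 bases, of which the first and the second overlap each other. No window held a TATA match, searched as the letters TATAAA on both strands. Of 32531 mouse windows of the same length, 32.1% held a CCAAT match, 30% a GC box and 11.7% a TATA match. The G and C content was 49.1% for Sox4, 59.6% for Sox11 and 76.1% for Sox12, beside a median of 52.2% over all windows. These matches describe letters and not sites in use.

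Dcx encodes doublecortin, which binds and stabilises microtubules in migrating neurons (chrX:143855842-143933311, minus strand, 7 exons). It was at 883, 766, 948 and 1011 CPM on the VGAT E16 plates and at 622, 533 and 668 CPM on the VGAT P0 plates. Every P0 plate was lower than every E16 plate, and the means were 902 ± 105 and 608 ± 68.5 CPM. The difference was -0.51 ± 0.13 (SE, adjusted p = 0.0417, edgeR), and it passed in 7 of 17 alternatives. As for Sox4, leaving out any plate but VGAT E16 replicate 2 ended the call (adjusted p of 0.0584 to 0.121). The second label gave 0.18 (adjusted p = 0.924), and the 3 plates of one stage label gave -0.54.

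Igfbpl1, an insulin-like growth factor binding protein-like gene found in newborn neurons, was the scarcest member (chromosome 4, 5 exons). It was at 4.68, 7.28, 6.38 and 4.22 CPM at E16, from 19 to 38 counts a plate, and at 2.65, 3.18 and 2.05 CPM at P0, from 4 to 7 counts a plate. The plates did not overlap, but the difference of -1.09 ± 0.40 (SE) did not pass (adjusted p = 0.119, edgeR). Non-overlap with P0 lower was seen for 4 members (Sox4, Sox11, Dcx and Igfbpl1) and for 1809 of the 13639 genes (13.3%). Non-overlap with P0 higher was seen for no member and for 1072 genes (7.86%).

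Dpysl3, which encodes the collapsin response mediator CRMP4 of growth cones, was at 2134, 2233, 2468 and 2265 CPM at E16 and at 1787, 1763 and 2189 CPM at P0 (chromosome 18, 14 exons). VGAT P0 replicate 3 fell within the E16 range, and the other P0 plates lay below it. The difference was -0.19 (95% interval -0.43 to 0.04, adjusted p = 0.349).

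The members that encode tubulins were not called. Tubb2b, a beta-tubulin of young neurons (chromosome 13, 4 exons), was at 1289, 1588, 975 and 941 CPM at E16 and at 1611, 1878 and 1411 CPM at P0. The overlap came from VGAT E16 replicate 2, and the difference of 0.51 (95% interval 0.15 to 0.87) had an adjusted p of 0.115. It passed without that plate (0.67, adjusted p = 0.0364) and with no filter on low counts (adjusted p = 0.0407). Tubb2b is nearly identical to Tubb2a, and how reads that match both were counted is not given in the sources used here, so the split between them is uncertain. Tubb3, the beta-III tubulin used as a marker of neurons (chromosome 8, 4 exons), was at 1320.4, 1478, 1092 and 1102 CPM at E16 and at 1292, 1283 and 1572 CPM at P0. The stages overlapped (0.21, 95% interval -0.06 to 0.47, adjusted p = 0.383). A gene model on the same strand, Gm20388, overlaps Tubb3 and held 15950 counts over the 9 plates beside 44353 of Tubb3, so the Tubb3 level depends on how shared reads were assigned.

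Stmn2, a stathmin that binds tubulin dimers in growth cones (chromosome 3, 5 exons), was at 2126, 2617, 2257 and 2179.9 CPM at E16 and at 2219, 2057 and 2840.1 CPM at P0. Gap43, the growth-associated protein of the growth cone membrane (chromosome 16, 3 exons), was at 1768, 2178, 1817 and 1849.6 CPM at E16 and at 1771, 1925 and 2344 CPM at P0. Both overlapped between stages. Their differences were 0.10 (95% interval -0.15 to 0.36, adjusted p = 0.673) and 0.14 (-0.11 to 0.39, adjusted p = 0.541), so a rise or fall by the size seen for Sox11 lies outside both intervals.

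**Figure D2:**
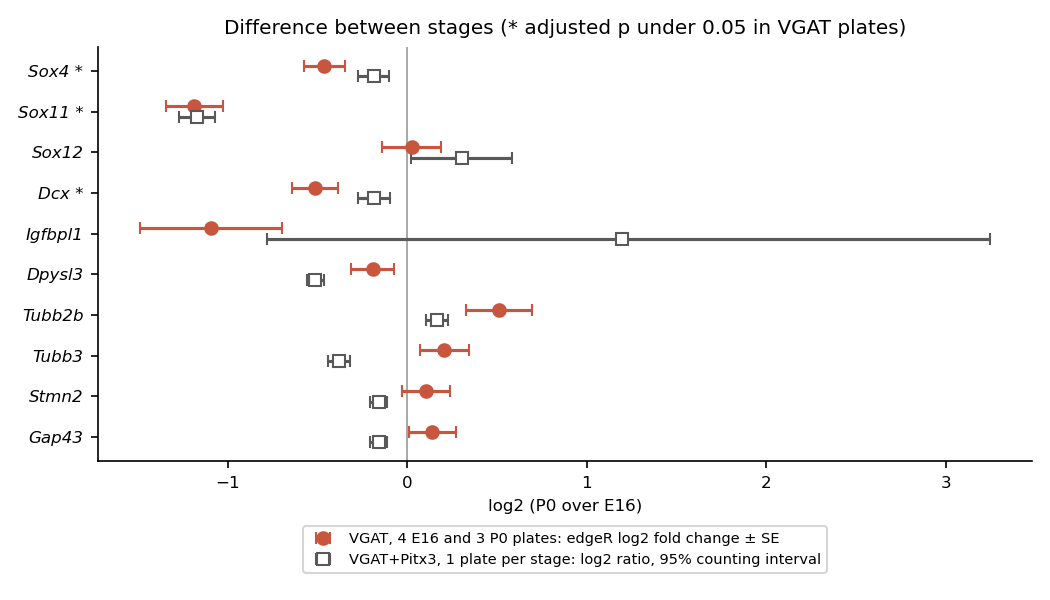
Log2 fold change of P0 over E16 for each of the 10 genes (horizontal axis): in VGAT plates with its standard error from edgeR, and as the ratio of the 2 VGAT+Pitx3 plates with a 95% interval that covers counting error only. Sox11 stands at -1.19 in VGAT plates and -1.17 in VGAT+Pitx3 plates, and the other members lie nearer to 0 apart from the sparse Igfbpl1.

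Among the VGAT plates, markers of glia set VGAT P0 replicate 2 apart. Astrocyte markers (Aqp4, Gja1, Aldh1l1 and Slc1a3) summed to 115 CPM on that plate, while the other VGAT P0 plates, from 3.22 CPM, lay within the range of the VGAT E16 plates (0.39 to 5.36 CPM); no marker was at 0 in either group. Oligodendrocyte lineage markers (Pdgfra, Olig1, Olig2 and Sox10) summed to 45.0 CPM on that plate, to at most 10.6 CPM at E16, and within the E16 range on the other P0 plates. The VGAT+Pitx3 plates of E16 and P0 also lay above those ranges, at 27.2 and 58.7 CPM for astrocyte and 23.8 and 31.5 CPM for oligodendrocyte lineage markers. Without that plate the Sox11 difference was -1.13 (adjusted p = 0.0193), and Sox4 and Dcx did not pass (0.106 and 0.116). Progenitor markers (Sox2, Nes, Hes5, Mki67 and Top2a) overlapped, at 54.5 to 81.4 and 50.6 to 93.5 CPM, as did markers of all neurons (Rbfox3, Snap25 and Syt1), at 1750 to 1994 and 1767 to 1874 CPM. Of the GABA neuron markers, Slc32a1 was higher at P0 (0.61, adjusted p = 0.0367, edgeR). Gad1 (-0.14, adjusted p = 0.594) and Gad2 (-0.21, adjusted p = 0.261) had differences below 0 and were not called. The class genes of the GABA neuron types described below (Six3, Pax5, Otx2, Nkx2-2, Dlx1, Dlx2, Dlx5 and Dlx6) summed to 830 to 1051 CPM on VGAT E16 plates and 512 to 663 CPM on VGAT P0 plates, without overlap, and none of the 8 was called between stages. The part of these markers in the members' differences was not tested.

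The single cells showed the same order for Sox11. Its median was 10.3 to 15.6 counts per 10000 in cells of the VGAT E16 plates and 4.97 to 6.79 in cells of the VGAT P0 plates. The whole distribution sat lower at P0: the 10th percentile went from 4.12 to 5.34 at E16 to at most 1.66 at P0, and the 90th from 21.3 to 34.7 to 13.9 to 15.6, without overlap at either, which held for 1.48% and 4.7% of all genes with such a percentile above 0 on average (1.11% were higher at the 10th). For Dcx the median was 7.18 to 9.27 at E16 and 5.17 to 6.66 at P0, again with no overlap; all genes with a median above 0 on average gave 7.63% lower and 3.79% higher without overlap. For Sox4 the medians were 6.37 to 6.88 and 4.43 to 5.97, but the 10th and 90th percentiles of the plates overlapped. Dpysl3 had lower medians at P0 (17.4 to 19.6 against 19.98 to 21.6), and Tubb2b had a higher 90th percentile (21.9 to 31.5 against 14.998 to 21.8, where 5.09% of genes were higher without overlap).

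**Figure D3:**
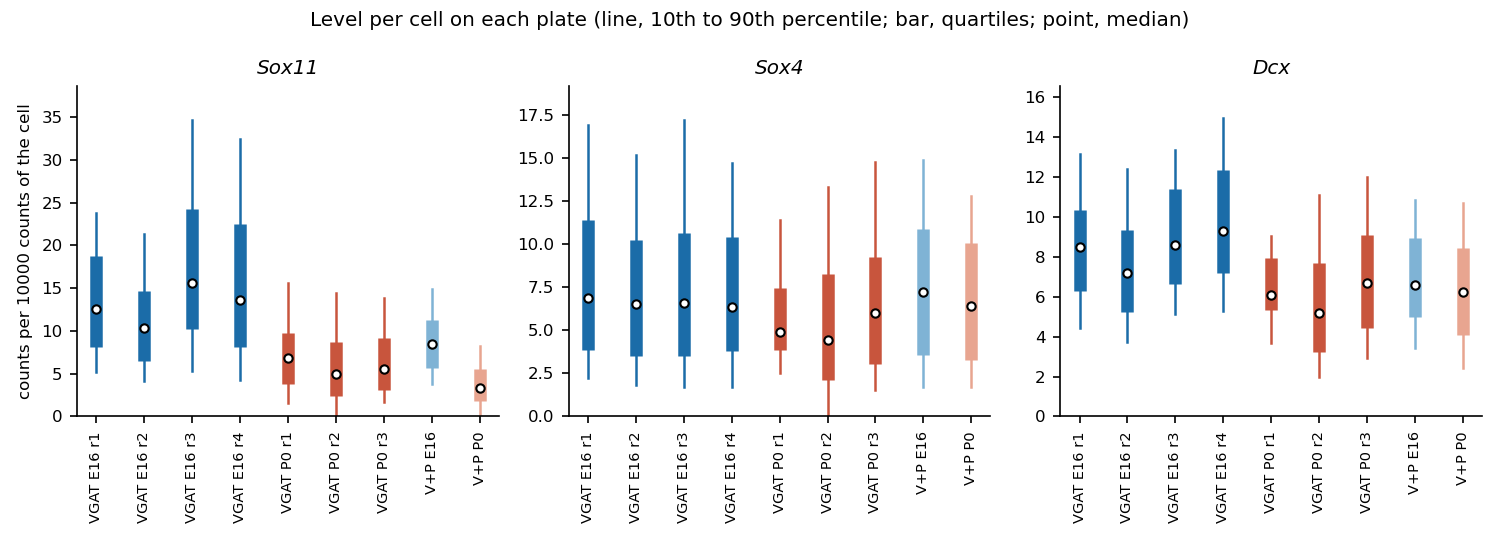
Counts of Sox11, Sox4 and Dcx per 10000 in single cells on each of the 9 plates (vertical axis from 0); the point is the median cell, the bar the quartiles and the line the 10th to 90th percentile. The Sox11 medians of the VGAT P0 plates (4.97 to 6.79) lie below those of all VGAT E16 plates (10.3 to 15.6).

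To compare how many cells held a gene, each cell was thinned to 4000 counts, which left out 79 shallower cells. Sox11 was found in 97.3, 94.7, 95.6 and 94.2% of cells on the VGAT E16 plates and in 83.7, 74.7 and 81.1% on the VGAT P0 plates. Shares of Sox4 (86.1 ± 2.76% and 79.8 ± 1.07%) and Dcx (95.9 ± 2.98% and 86.4 ± 2.83%) were also lower at P0 without overlap. Those of Tubb3 (96.4 ± 1.45% and 99.1 ± 0.81%) and Gap43 (97.9 ± 0.50% and 99.8 ± 0.30%) were higher without overlap. Over 7024 genes, 8.86% were lower and 8.04% higher without overlap in the same way. Only Sox11 kept such a difference at each of the other depths tried, 2000 counts, 8000 counts and no thinning. Unthinned, its shares were 99.5 ± 0.41% and 94.2 ± 4.72%, which lie near the ceiling and depend on the depth of each plate. In every plate the median thinned cell held 8 of the 10 members, and no cell held none.

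In the VGAT+Pitx3 sort each stage had 1 plate, so ratios carry no replicate check and their 95% intervals cover counting error only. Sox11 was at 929.7 CPM on the E16 plate and 413 CPM on the P0 plate, a ratio of 0.444 (0.414 to 0.477). It was the only member at least 1.5-fold lower at P0, a size that 2353 of 15724 genes (15%) reached in that direction and 2818 (17.9%) in the other. Dpysl3 was at 3101 and 2174 CPM, a ratio of 0.701 (0.678 to 0.724), and Tubb3 at 1677 and 1287 CPM, a ratio of 0.767 (0.735 to 0.801). Sox4 (783 and 687 CPM), Dcx (734 and 646 CPM), Stmn2 (2709 and 2426 CPM) and Gap43 (2662 and 2382 CPM) had ratios between 0.878 and 0.895. On spliced counts the intervals of Sox4 (0.890 to 1.004) and Dcx (0.881 to 1.006) included 1, as did that of Dcx in thinned cells (0.871 to 1.07). Those of Stmn2 and Gap43 stayed below 1 in both settings. Tubb2b (1431 and 1606 CPM) and Sox12 (61.1 and 75.5 CPM) were higher on the P0 plate, by 1.12 and 1.24 times. Igfbpl1 rested on 5 and 6 counts, and its ratio of 2.29 had an interval of 0.582 to 9.47. The median cell had 14562 counts on the E16 plate and 7977 on the P0 plate. Dopamine neuron markers summed to 2484 and 1890 CPM, glutamate neuron markers (Slc17a6, Slc17a7 and Slc17a8) to 108 and 202 CPM and astrocyte markers to 27.2 and 58.7 CPM. Markers of all neurons were at 1495 and 1502 CPM. The part of depth and these markers in the ratios was not tested.

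Whether the stage difference was another in VGAT+Pitx3 cells than in VGAT cells was tested by an interaction term over all 9 plates. With 1 VGAT+Pitx3 plate per stage the spread comes from the VGAT plates alone, and the lone plates are assumed to vary like them. No member and none of the 15724 genes passed (0%), with 998 genes at an unadjusted p under 0.05, 3 called by DESeq2 and 66 without the filter on low counts. For Sox11 the interaction was 0.08 (95% interval -0.55 to 0.70, adjusted p = 0.975), for Sox4 0.34 (-0.12 to 0.80, adjusted p = 0.819) and for Dcx 0.39 (-0.12 to 0.90, adjusted p = 0.816). The lowest unadjusted p of a member was that of Igfbpl1 (0.0329, adjusted p = 0.773), which had 5 and 6 counts in the VGAT+Pitx3 plates.

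Between the sorts, with stage as a covariate, Sox11 was 1.53-fold lower in VGAT+Pitx3 cells (-0.61 ± 0.17 SE, adjusted p = 0.0339, edgeR). Its VGAT+Pitx3 plate lay below every VGAT plate of the same stage at both stages. It was the only member among the 1306 of 14624 genes called (8.93%; 614 or 4.2% lower, 692 or 4.73% higher), and it passed in 11 of 19 alternatives. The call ended without the VGAT+Pitx3 plate of E16 (adjusted p = 0.276) or of P0 (0.154), without VGAT E16 replicate 1 (0.0510), VGAT P0 replicate 1 (0.0619) or VGAT P0 replicate 3 (0.0519), and with the replicate block (0.0558). It also ended in cells of 6000 to 15000 counts (0.741) and in cells with at least 3000 genes (0.0738). Gap43 (0.39, 95% interval 0.13 to 0.66, adjusted p = 0.101) and Dpysl3 (0.35, 0.10 to 0.59, adjusted p = 0.130) had their highest level of the 9 plates on the VGAT+Pitx3 E16 plate. Both passed with DESeq2 (adjusted p = 0.0311 and 0.0315). Of 19 alternatives Gap43 passed in 3 and Dpysl3 in 1. The remaining 7 members had adjusted p-values from 0.240 to 0.951. Markers of other cell types also differed between the sorts. Progenitor markers summed to 19.2 and 23.7 CPM on the VGAT+Pitx3 plates and to 50.6 to 93.5 CPM on the VGAT plates. Glutamate neuron markers summed to 108 and 202 CPM on the VGAT+Pitx3 plates and to 1.93 to 22.8 CPM on the VGAT plates. The part of these markers in the Sox11 difference was not tested.

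Counts in introns give a separate view for members that have them. Sox4, Sox11 and Sox12 had no intronic count on any plate, and Tubb2b had at most 3. Of 7417 genes tested on intronic counts, 168 (2.27%) were called, and none of the 5 members tested was among them. The intronic counts of Dcx differed by -0.38 ± 0.14 (SE, unadjusted p = 0.0155, adjusted p = 0.201, edgeR) and those of Tubb3 by -0.40 ± 0.19 (adjusted p = 0.332). Dpysl3, Stmn2 and Gap43 had differences from -0.23 to -0.05. Introns held 13.7 ± 0.57% of Dcx counts at E16 and 12.5 ± 1.46% at P0, beside 27.6 ± 2.61% and 22.6 ± 2.95% over all genes.

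The VGAT cells hold several GABA neuron types, which the study places in regions by marker genes, transcription factors among them. Of the Dlx genes used here its text names Dlx1, for a hypothalamic cluster. Cells with at least 1 count of Six3 (538 cells), Pax5 (224), Otx2 (254), Nkx2-2 (312) or any of Dlx1, Dlx2, Dlx5 and Dlx6 (153) after thinning were set against the other VGAT cells of the same plate, with the plate as a block. Cells without the factor's RNA may still belong to the type, and a cell can be in more than 1 class. In Otx2 cells 4 members were called, all lower, where 751 of 11709 genes (6.41%) were called and 349 (2.98%) were lower. Gap43 was at 1568 ± 222 CPM in Otx2 cells and 2076 ± 224 CPM in the others (-0.36 ± 0.05 SE, adjusted p = 0.00023, edgeR), Tubb3 at 1097 ± 148 and 1379 ± 186 CPM (-0.27 ± 0.06, adjusted p = 0.0085), Dpysl3 at 1800 ± 315 and 2232 ± 255 CPM (-0.26 ± 0.05, adjusted p = 0.0042) and Tubb2b at 1208 ± 357 and 1453 ± 359 CPM (-0.23 ± 0.06, adjusted p = 0.0264). Each was lower in Otx2 cells on 7 of 7 plates, and so was Stmn2, which did not pass (-0.16, adjusted p = 0.0988). Without any of 5 plates, VGAT E16 replicates 1, 3 and 4 and VGAT P0 replicates 1 and 3, the Tubb2b call ended (adjusted p of 0.0523 to 0.0820). The Otx2 cells had a lower median count than the other cells on 7 of 7 plates (for example 14572 and 17661 on VGAT E16 replicate 3), and over cells of a plate Gap43, Tubb3, Dpysl3 and Tubb2b had median Spearman correlations of 0.18, 0.23, 0.25 and 0.11 with depth; the part of depth in these calls was not tested. Where Otx2 cells were chosen from unthinned counts, Dpysl3, Tubb3 and Tubb2b did not pass (adjusted p of 0.105 to 0.360) and Gap43 did.

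In Pax5 cells, on 6 plates that held at least 5 of them, 2 members were called, both higher, where 796 of 12181 genes (6.53%) were called and 396 (3.25%) were higher. Tubb3 was at 1559 ± 316 CPM in Pax5 cells and 1299 ± 209 CPM in the others (0.32 ± 0.06 SE, adjusted p = 0.0024, edgeR), and Gap43 at 2222 ± 251 and 1988 ± 248 CPM (0.24 ± 0.06, adjusted p = 0.0268). Both were higher on 6 of 6 plates. The Gap43 call ended without VGAT E16 replicate 1 (adjusted p = 0.141), 2 (0.0719) or 3 (0.0915), without VGAT P0 replicate 2 (0.122) and without the filter on low counts (0.159). Without the plate as a block, none of the 6 calls of members in Otx2 and Pax5 cells passed (adjusted p of 0.113 to 0.811). No member was called in Six3 cells (341 of 13129 genes, 2.6%; 2 members at an unadjusted p under 0.05), in Nkx2-2 cells (359 of 11957, 3%; 2 members) or in Dlx cells (275 of 12454, 2.21%; 2 members). The nearest was Sox4 in Six3 cells, lower on 6 of 7 plates (-0.26 ± 0.07 SE, adjusted p = 0.0576, edgeR). It passed in 3 of 12 alternatives. Gap43 in Nkx2-2 cells (0.16, adjusted p = 0.0869, edgeR) and Stmn2 in Otx2 cells each passed in 1 of 12.

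**Figure D4:**
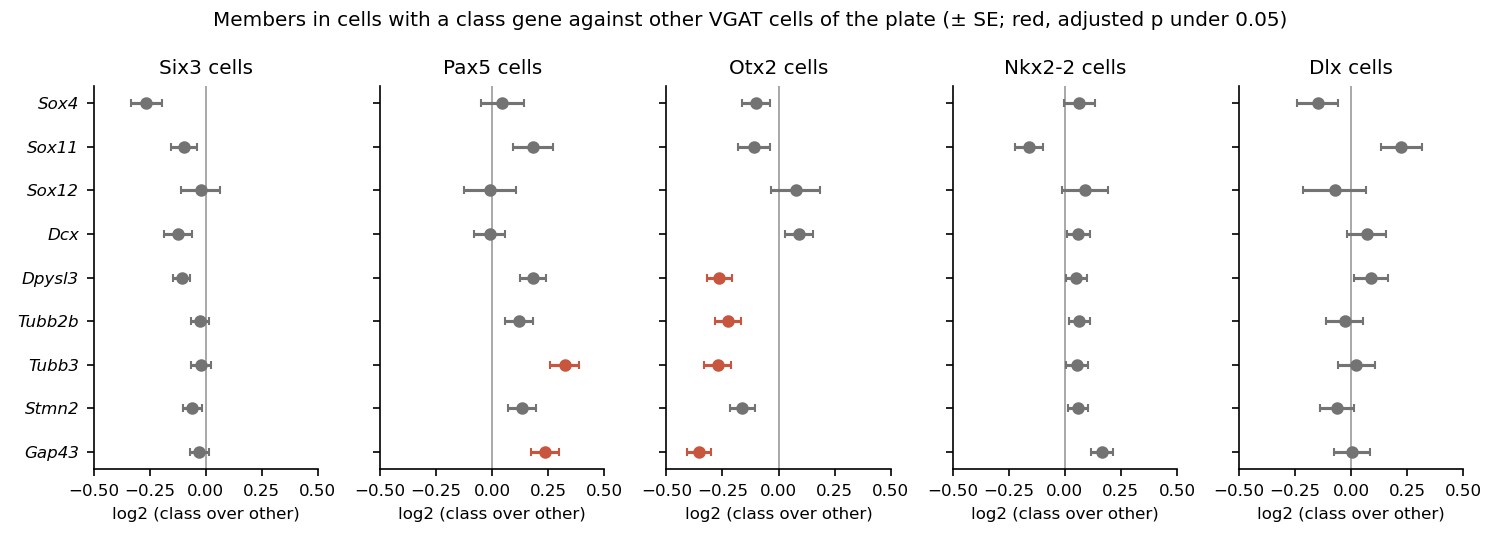
Log2 fold change, with standard error, of each of the 10 genes but Igfbpl1, which is not drawn (horizontal axis). Values are for cells with a class gene over the other VGAT cells of the same plates, 1 panel per class. Red marks an adjusted p under 0.05. The called members are Gap43, Tubb3, Dpysl3 and Tubb2b in Otx2 cells, all below 0, and Tubb3 and Gap43 in Pax5 cells, both above 0.

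Within the classes Sox11 went from 1420 ± 322 CPM at E16 to 598 ± 135 CPM at P0 in Six3 cells, from 1741 ± 495 to 479 ± 15.7 CPM in Pax5 cells (2 P0 plates) and from 1392 ± 341 to 558 ± 90.9 CPM in Otx2 cells. In Nkx2-2 cells it went from 1331 ± 307 to 554 ± 78.9 CPM, and in Dlx cells from 1600 ± 375 to 749 CPM (1 P0 plate). The ratios of P0 to E16 were 0.42, 0.28, 0.40, 0.42 and 0.47. Sox4 had ratios from 0.47 in Pax5 cells to 0.80 in Dlx cells, and Dcx from 0.65 to 0.70. For Sox11 and Sox4 every P0 plate was below every E16 plate in each class, as were 11.1% of all genes tested in Six3 cells, 19.3% in Pax5 cells, 8.04% in Otx2 cells and 9.95% in Nkx2-2 cells. No member was higher without overlap in these 4 classes, where 6.12%, 10.4%, 4.99% and 6.53% of genes were. Dcx overlapped in Six3 and Otx2 cells, and of the other members Dpysl3 was lower without overlap in Pax5 cells. In Dlx cells, with 1 P0 plate, 36.5% of all genes were lower and 25% higher without overlap, and so were 8 of the 10 members, among them Dpysl3, Stmn2 and Igfbpl1 lower and Sox12 and Tubb2b higher, so nothing is read from it there. These are descriptions without a test, and whether classes differ in their ratio was not tested. The share of cells in each class overlapped between stages.

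**Figure D5:**
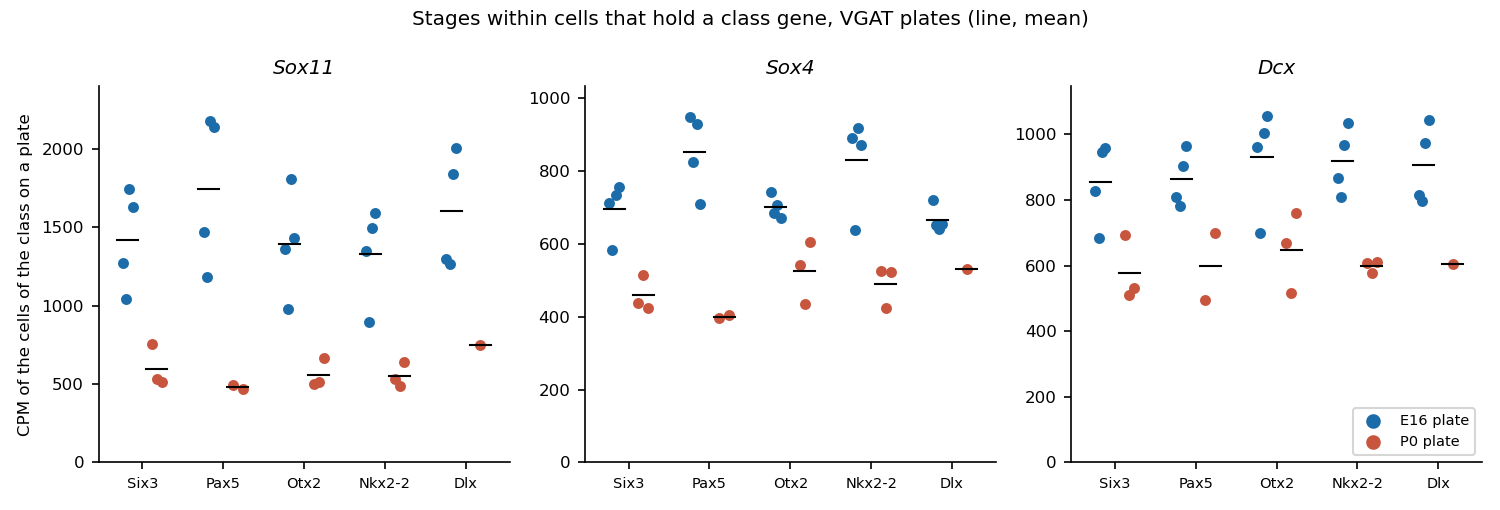
Level in CPM (vertical axis from 0) of Sox11, Sox4 and Dcx in cells of the 5 classes on VGAT plates, E16 and P0 side by side; points are plates and lines are means. Sox11 points at P0 lie below all E16 points in each class, with P0 means of 479 to 749 CPM.

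Of 48 other genes of the same programme, all tested between stages in VGAT cells, 9 were called, 6 higher and 3 lower at P0, where 4.58% of all genes were called, and the median difference was 0.09. Those higher were the tubulins Tuba1b (1.01 ± 0.16 SE, adjusted p = 0.0107, edgeR), Tubb4b (0.70, adjusted p = 0.0137) and Tubb2a (0.68, adjusted p = 0.0256), the axonal adhesion molecule Cntn2 (0.58, adjusted p = 0.0352), the stathmin Stmn1 (0.56, adjusted p = 0.0457) and the transcription factor Nhlh1 (2.19, adjusted p = 0.0449, from 3 to 15 counts a plate at E16 and 3, 10 and 45 at P0; 1.23, adjusted p = 0.337, without VGAT P0 replicate 3). Those lower were the surface protein Cd24a (-0.87, adjusted p = 0.0357), the RNA-binding protein Elavl2 (-0.72, adjusted p = 0.0223) and the intermediate filament Ina (-0.55, adjusted p = 0.0477). On intronic counts Elavl2 was again lower (-0.83, adjusted p = 0.0029), as was the splicing regulator Nova1 (-0.57, adjusted p = 0.0455), of 32 such genes tested. The intronic Nova1 call ended without any plate but VGAT P0 replicate 2 (adjusted p of 0.0861 to 0.194). On the plates of one stage label the intronic differences were -0.33 for Nova1 and -0.68 for Elavl2. On total counts, without VGAT P0 replicate 3, 8 of the 9 genes, all but Cd24a, did not pass, and Cd24a lost the call without VGAT E16 replicate 1, 3 or 4 or VGAT P0 replicate 1 or 2. With the second plate label 7 of the 9 genes, all but Cntn2 and Stmn1, changed sign and none passed. On the plates of one stage label the differences of Tubb2a (0.45), Tubb4b (0.47), Elavl2 (-0.33), Nhlh1 (1.56) and Ina (-0.41) were smaller in size than on all VGAT plates. Those of Stmn1 (0.79) and Cntn2 (0.80) were larger.

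Between the sorts 4 of the 48 were called, a share near that over all genes (8.93%). Rnd3, which acts in migrating neurons (-1.81 ± 0.18 SE, adjusted p = 6.3e-06, edgeR), Nhlh1 (adjusted p = 0.0473, from 1 count on each VGAT+Pitx3 plate and 3 to 45 on the VGAT plates) and Nrep (-0.47, adjusted p = 0.0306) were lower in VGAT+Pitx3 cells. The semaphorin co-receptor Plxna4 was higher (0.78, adjusted p = 0.0037). Without the VGAT+Pitx3 plate of P0 only Rnd3 of the 4 passed. In the classes the calls numbered 5 of 48 in Six3 cells (1 higher; 2.6% called over all genes), 8 of 48 in Pax5 cells (6 higher; 6.53%), 10 of 47 in Otx2 cells (1 higher; 6.41%), 3 of 47 in Nkx2-2 cells (1 higher; 3%) and 1 of 47, lower, in Dlx cells (2.21%).

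The members did not follow 1 course over the plates. Against the mean of the standardised log2 CPM of all 10, the correlation of single members over the 9 plates ran from -0.29 for Tubb2b to 0.82 for Dpysl3. Among 8152 other genes of at least 20 CPM, those most like that mean were Mgrn1 (r = 0.961), Grk6 (0.960), Mycn (0.957), Porcn (0.955) and Pias4 (0.954), over 9 plates that share depth and stage. These values describe likeness of level only.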

How the data were processed

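Cells were sorted into 384-well plates (SORT-seq, a form of CEL-seq2 that reads transcript 3′ ends). The authors aligned reads to the mouse genome (GRCm38; the labels give mm10) with STAR and counted unique molecular identifiers (UMIs) over exons (spliced), introns (unspliced) and both (total). The deposited values are estimated counts, corrected for UMI collisions: 51.7% of the non-zero values were not whole, and 100% lay within 0.001 of a correction for 4096 barcodes. That is the number for a UMI of 6 bases, as in the labels, while the study's methods give 4 bases. Strand and multi-mapping rules are not given in the sources used here. Every plate uses the same well barcodes by design.

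Wells were kept from 2000 genes up, to 50000 counts and below 15% mitochondrial counts, and their counts were summed per plate and rounded. Spike-ins and mitochondrial genes were left out, and no doublet caller was run (leaving out cells over 2 times their plate's median was an alternative). Genes were filtered with filterByExpr, scaled by TMM and tested with edgeR 4.0.16 (quasi-likelihood, R 4.3.3), with adjusted p-values by Benjamini-Hochberg over all genes tested and a threshold of 0.05. Stage was tested on the 7 VGAT plates, and the interaction and the sort on all 9. DESeq2 1.42.0, other scaling and filters, other limits on cells and leaving out each plate were alternatives. The 2 uses of the plate labels were added after the data were seen. Code was tested on simulated data. Intervals of the VGAT+Pitx3 ratios are exact conditional binomial intervals at 95%. Class cells were chosen after thinning to 4000 counts, on plates with at least 5 such cells, and the class genes were left out of their tests.

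The members and lists were chosen with earlier results of these data known. All 10 members are named throughout, of the other 48 genes of the programme those past the threshold between stages and sorts, and the 5 genes most like the members' mean. The values of 1 gene called among the maturing neuron genes are not reported here. Of the 10 members, 5 had an upstream sequence in the RefSeq table.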

Additional observations from a re-analysis of the deposited data

Results flagged for a closer look

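The Sox12 level of VGAT E16 replicate 1, 75.8 CPM, stood apart from the other 3 VGAT E16 plates, which lay between 69.6 and 70.3 CPM. Its gap to the nearest plate was 0.891 of the range of the 4 plates, above Dixon's critical value. Chance alone gives such a gap in about 1 in 20 groups, and this was 1 of 25 groups looked at.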

How the results depend on the processing

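The number of genes called between stages in VGAT cells (624) was 944 with DESeq2, 1588 without the filter on low counts, 368 with thinned cells, 184 in cells of 6000 to 15000 counts (1 cell of VGAT P0 replicate 1), 1 with the second plate label and 76 to 833 leaving out 1 plate. With the replicate block it was 226. Deviations of same-numbered plates from their stage means correlated by 0.0097, 0.0765 and 0.0368, and those of other plates by -0.105 to 0.0783. So few pairs cannot show whether the numbers pair the plates. The block ended the calls of Sox4 (adjusted p = 0.0888) and Dcx (0.0950) between stages and of Sox11 between sorts (0.0558). Among the other genes of the programme it also ended stage calls, such as those of Stmn1 (0.123), Tubb2a (0.0905), Tubb4b (0.0594) and Cntn2 (0.115). Tuba1b kept its call (0.0177). The interaction (0 genes) gave 3 with DESeq2 and 66 without the filter, 0 leaving out any 1 VGAT plate, and could not be fitted without a VGAT+Pitx3 plate. The sort count (1306) was 663 in cells of 6000 to 15000 counts and 625 to 1397 leaving out 1 plate. The intronic count (168) was 348 without the filter, 2 with the second label, 84 on the plates of one stage label and 30 to 182 leaving out 1 plate. Without the plate block the classes gave 36 (Six3), 301 (Pax5), 276 (Otx2), 94 (Nkx2-2) and 59 (Dlx) genes; without the filter 692 (Six3), 745 (Nkx2-2) and 467 (Dlx); with class cells from unthinned counts 99 (Six3), 376 (Pax5) and 113 (Dlx); with DESeq2 146 (Dlx). Leaving out 1 plate gave 206 to 335 (Six3), 497 to 789 (Pax5), 531 to 814 (Otx2), 243 to 389 (Nkx2-2) and 127 to 270 (Dlx). The number of members whose shares of cells did not overlap between stages was 5 at 4000 counts, 3 at 2000 (Sox4, Sox11 and, not among the 5, Sox12), 1 at 8000 and 1 unthinned (Sox11 in both).

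Signs turned as follows, as log2 fold changes. With the second plate label the stage differences were 0.088 (Sox4), 0.47 (Sox11), 0.18 (Dcx), 0.11 (Igfbpl1), 0.062 (Dpysl3), -0.19 (Tubb2b), -0.27 (Tubb3), -0.17 (Stmn2), -0.10 (Gap43), -0.32 (Tubb2a), -0.29 (Tubb4b), -0.22 (Tuba1b), 0.47 (Elavl2), -1.02 (Nhlh1), 0.075 (Cd24a), 0.31 (Ina), -0.14 (Syp), -0.18 (Ndrg4) and -0.074 (Sncb), and the intronic ones 0.049 (Dcx), 0.43 (Tubb3), 0.23 (Elavl2) and 0.18 (Nova1). On the plates of one stage label they were -0.039 (Tubb3), -0.12 (Stmn2) and 0.11 (Tubb3, intronic). Sox12 was at -0.058 without the filter, -0.034 with the replicate block, -0.030 on spliced counts and -0.22 to 0.17 leaving out 1 plate (lowest without VGAT P0 replicate 2), and Stmn2 at -0.033 to 0.17 leaving out 1 plate (lowest without VGAT P0 replicate 3). The Sox11 interaction was -0.00060 with the replicate block and -0.013 to 0.19 leaving out 1 plate (lowest without VGAT E16 replicate 3). The causes were not tested. Of 817 values of named genes under an alternative, 618 kept sign and side of the threshold, 155 lost the call, 11 gained it and 33 turned sign. Igfbpl1 was too sparse to be tested in thinned cells or in cells of 6000 to 15000 counts, with 4 to 38 counts on each VGAT plate.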

Other observations

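Genes of maturing neurons gave a companion to the members. Of 22 such genes (neurofilaments and synaptic vesicle proteins among them), 5 were called between stages in VGAT cells, all higher at P0, with a median difference of 0.41. Over all genes 4.58% were called and 2.84% were higher, and the median was 0.02. Among them were Thy1, a surface glycoprotein of neurons (2.29, adjusted p = 0.0113, edgeR), the synuclein Sncb (1.16, adjusted p = 0.0063), the synaptic vesicle protein Syp (0.98, adjusted p = 0.0139) and Ndrg4 (0.62, adjusted p = 0.0275). Thy1 and Sncb passed leaving out any 1 plate. With the second plate label none of the 4 passed (Thy1 0.49, adjusted p = 0.959, and Sncb -0.074, adjusted p = 0.988). Syp did not pass without VGAT E16 replicate 3 or VGAT P0 replicate 2 or 3 (adjusted p of 0.0508 to 0.0616). Ndrg4 did not pass without VGAT E16 replicate 1, 3 or 4 or VGAT P0 replicate 2 or 3 (adjusted p of 0.0592 to 0.103). It also did not pass with the replicate block (0.0772) or in cells of 6000 to 15000 counts (0.161). Between the sorts 4 of the 22 were called, all lower in VGAT+Pitx3 cells, where 8.93% of all genes were called and 4.2% were lower.

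Over thinned cells of a plate, the pairs among Dpysl3, Tubb2b, Tubb3, Stmn2 and Gap43 had median Spearman correlations of 0.17 to 0.29 over the 9 plates. Sox11 and Dcx had a median of 0.15, Sox4 and Sox11 of 0.12 and Sox11 and Gap43 of -0.11. Such weak values in sparse counts of cells that share a library describe these plates and are not tested.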
